A study of Mus musculus with 14 samples.

Results

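Hearts of mice given 2 viruses at once, one for active YAP and one for MEF2A, were compared with hearts given the MEF2A virus alone. The comparison holds 6 of the 14 libraries, 2 that received both viruses and 4 that received MEF2A, chosen by their labelled treatment, and 17987 of the 54446 genes in the table had enough counts to be tested. RNA was measured by polyA RNA-seq in heart nuclei enriched for PCM1, a protein at the nuclear surface of cardiomyocytes. All mice were wild-type ICR, an outbred strain. AAV9, a virus that reaches the heart, was injected into the abdomen on postnatal day 7 at 1E11 genome copies of each virus, and hearts were collected at day 12. The MEF2A libraries (4, numbered 1 to 4) came from mice given AAV9:cTnT-hMEF2A, and the both-virus libraries (2, labelled YAP5SA_MEF2A 1 and 2) from mice given AAV9:cTnT-YAP5SA as well. Both transgenes were driven by the cardiac troponin T promoter, which is active in cardiomyocytes. Mice with both viruses had received 2 viral doses and MEF2A mice 1, and the labels name no empty virus, so the second dose of virus and YAP5SA itself cannot be told apart. For values set beside the comparison there were 3 YAP5SA libraries and 5 Control libraries without virus.

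YAP is a transcriptional coactivator that the Hippo kinases hold in the cytoplasm, and in the nucleus it acts with TEAD factors on genes of growth, adhesion and the cytoskeleton. YAP5SA carries changes at its inhibitory phosphorylation sites and escapes that control. MEF2A is a transcription factor of muscle, where MEF2 proteins drive contractile and metabolic genes. Active YAP is known in heart muscle for promoting growth and proliferation.

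Total counts ran from 16171068 to 24027622 over the 14 libraries. Both both-virus libraries belonged to batch 1, together with MEF2A 1 and 2, while MEF2A 3 and 4 were of batch 2. The share of counts from mitochondrially encoded genes was 14.8%, 16.3%, 15.7% and 23.2% in the MEF2A libraries and 6.10% and 5.35% in the both-virus libraries. By Xist and Y-linked transcripts both both-virus libraries were female, as were MEF2A 1, 2 and 3, and MEF2A 4 was male. All 3 YAP5SA libraries were male, and of the Control libraries 3 were male and 2 female. Log2 CPM (counts per 1e6 of the library total scaled by its TMM factor) correlated across genes, which are not independent replicates, at 0.944 to 0.971 between MEF2A libraries, 0.975 between both-virus libraries and 0.913 to 0.950 between the groups. Whether the libraries come from different mice is not stated in the labels. The tests therefore weigh differences against library-to-library spread, part of which may be technical. Fewer cells of a type and less RNA per cell cannot be told apart in these bulk samples.

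Of the 17987 genes tested, 417 (2.32%) changed between both viruses and MEF2A in edgeR's quasi-likelihood test at an adjusted p under 0.05, with batch as a term and 1 estimate of the spread over all 14 libraries. With both viruses 290 genes were higher (1.61%) and 127 lower (0.706%). At an unadjusted p under 0.05 there were 2778, 1568 higher (8.72%) and 1210 lower (6.73%), the background for the unadjusted counts of each list below. The risen genes were lower expressed than the fallen ones and moved further. Their median log2 fold change was 2.05, and 149 of them changed at least 4-fold (51.4%, against 10% of all genes tested). Their median log2 CPM was 3.99, against 2.81 over all genes tested. The fallen genes had a median log2 fold change of -1.28 at a median log2 CPM of 6.11, and 13 changed at least 4-fold. In 41 of the 290 risen genes the MEF2A mean was under 1 CPM, as it was in 4754 of all 17987 genes. Of the 41, 12 had 0 counts in all 4 MEF2A libraries, and so entered the test only through counts in other groups. Both libraries of the both-virus group lay above all 4 MEF2A libraries in 4097 genes (22.8%) and below them in 3289 (18.3%), so a lack of overlap alone is common in this comparison.

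**Figure D1:**
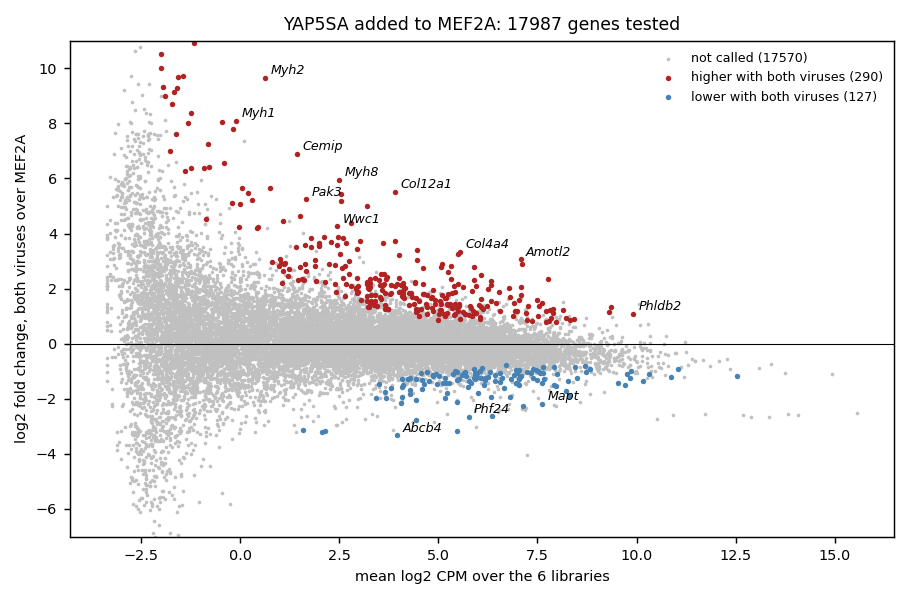
Log2 fold change of both viruses over MEF2A (vertical axis) against the mean log2 CPM over the 6 libraries (horizontal axis), 1 point per gene. The 290 genes higher with both viruses (red) reach far up the axis at low expression, and the 127 lower genes (blue) lie closer to 0 at higher expression; 12 genes lie outside the axis, which runs from -7 to 11.

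The direction of the split depended on scaling. With library totals in place of TMM factors the log2 fold change had a median of 0.67 over all genes instead of 0.05. The calls became 427 higher and 3 lower, so 99.3% of calls were rises against 69.5%. Of the 28 fallen genes that the rule for named genes took, 27 lost their call with library totals (Abcb4 kept it), and all kept a value below 0. Falls are therefore given relative to the TMM scale, on which the median of all genes is near 0. List medians given below with library totals stand beside the median of 0.67 over all genes on that scale. The calls leaned on both both-virus libraries. Without YAP5SA_MEF2A 1 there were 90 calls and without YAP5SA_MEF2A 2 there were 103, of which 90 and 102 were among the 417. In batch 1 alone (2 libraries against 2) 304 genes were called, 208 higher and 96 lower, and 216 of them were among the 417. Of all 66 called genes that the rule took, 17 kept their call whichever of the 14 libraries was left out, 26 lost it in batch 1 alone, 20 without the 3 mitochondria-rich libraries (Control 1, Control 2 and YAP5SA 3, a setting chosen after seeing the data), 17 with a term for sex, and 0 changed direction in any setting tried.

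The mouse genes of the 2 delivered factors did not pass the test. Yap1 (ENSMUSG00000053110, chromosome 9, 7931999 to 8004596 on GRCm38) had 81.2, 80.6, 64.1 and 67.3 CPM in MEF2A 1 to 4 and 70.2 and 79.4 in the both-virus libraries, with overlap of the groups (log2 fold change ± SE, as in all values given with an adjusted p below, -0.10 ± 0.24, adjusted p = 0.915). Mef2a (ENSMUSG00000030557, chromosome 7, 67231163 to 67372858) had 623, 612, 569.8 and 579.8 CPM in the MEF2A libraries and 484 and 562 with both viruses, the latter all lower (-0.31 ± 0.24, adjusted p = 0.617). The MEF2A transgene is human and need not be counted at the mouse gene, so these values do not check the labels. An exon of Lysmd4 overlaps Mef2a, and one of Gm20416 overlaps Yap1, on the opposite strand, and libraries without strand cannot tell such reads apart. The same holds for 22 of these 66 called genes, among them Krt7, Tgfb2, Ccn2, Col4a3, Cacna1s, Vcl and Tln1.

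Among genes known as targets of YAP and its relative TAZ, several rose and none fell. Of 21 tested members 6 rose and 0 fell, and the median log2 fold change was 1.19 against 0.05 over all genes. Amotl2 (ENSMUSG00000032531, chromosome 9, 102716672 to 102733418), which encodes an angiomotin that binds YAP, had 94.5, 73.2, 61 and 45.5 CPM in MEF2A 1 to 4 and 535 and 574 CPM with both viruses. The groups were far apart, and the rise on the log2 scale was large against its error (3.07 ± 0.39, adjusted p = 0.000583). Tgfb2, a TGF-beta ligand, had 7.95, 11.4, 10.7 and 11.5 CPM in the MEF2A libraries and 42.9 and 54.1 with both viruses (2.21 ± 0.35, adjusted p = 0.00193). Ccn2, which encodes connective tissue growth factor and is a widely used readout of YAP, had 59, 21.2, 23.2 and 27.7 CPM with MEF2A, where MEF2A 1 was the highest, and 201 and 277 with both viruses (2.77 ± 0.47, adjusted p = 0.00881). Asap1, a regulator of Arf GTPases at focal adhesions, had 148, 138, 183 and 189.9 CPM and 316 and 378 CPM in the same order (1.19 ± 0.24, adjusted p = 0.0121). The remaining risen members were Crim1, a transmembrane regulator of growth factors (2.23 ± 0.48, adjusted p = 0.0188), and Rbms3, an RNA-binding protein (1.40 ± 0.30, adjusted p = 0.0192). Other textbook targets were above the MEF2A libraries without passing. Ccn1 had a mean of 21.9 ± 8.99 CPM (SD, n = 4) with MEF2A and 96.5 ± 8.2 (SD, n = 2) with both viruses (2.05 ± 0.57, adjusted p = 0.0997), and Ankrd1, a stress-responsive muscle protein, had 823 ± 375 and 2182 ± 402 (1.44 ± 0.56, adjusted p = 0.226). Axl (0.02 ± 0.43, adjusted p = 0.996) and Ptpn14 (0.06 ± 0.24, adjusted p = 0.952) had values near 0. Without either both-virus library the calls of Ccn2 (largest adjusted p 0.125) and Asap1 (0.198) ended, and that of Asap1 also ended without MEF2A 1 or 2. Ccn2 lost its call in batch 1 alone, in a fit of the 6 libraries alone and without the 3 mitochondria-rich libraries.

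Of the Hippo pathway, TEAD factors and their cofactors, 4 of 24 tested genes rose and 0 fell, with a median of 0.45. Wwc1, which encodes the upstream Hippo activator KIBRA (chromosome 11, 35838400 to 35980527), had 2.72, 1.81, 3.07 and 0.912 CPM in MEF2A 1 to 4 and 40.0 and 38.7 with both viruses (4.27 ± 0.49, adjusted p = 0.000124). Ajuba, a LIM protein that restrains the LATS kinases, had 46.6, 30.3, 20.2 and 16.8 CPM and 123 and 102 CPM (1.87 ± 0.35, adjusted p = 0.0101). The Vestigial-like genes Vgll3 and Vgll4 encode cofactors that bind TEAD factors, and Vgll4 is known to compete with YAP. Vgll3 had 1.47, 1.12, 2.64 and 2.19 CPM with MEF2A and 19.2 and 17.1 with both viruses (3.67 ± 0.70, adjusted p = 0.0135), and Vgll4 had 1.96, 3, 0.528 and 1.58 CPM and 12 and 12.5 CPM (2.65 ± 0.55, adjusted p = 0.0161). In each of these 4 genes both both-virus libraries lay above every MEF2A library. TEAD factor genes did not pass: Tead1 had 0.54 ± 0.23 and Tead4 1.60 ± 0.50 (SE), with adjusted p = 0.268 and 0.11. The kinase genes Lats1 (-0.02 ± 0.20, adjusted p = 0.985) and Stk3 (0.26 ± 0.42, adjusted p = 0.85) and the TAZ gene Wwtr1 (-0.05 ± 0.58, adjusted p = 0.99) had values that missed the threshold too. The call of Wwc1 held whichever library was left out. Without YAP5SA_MEF2A 1 the calls of Ajuba (largest adjusted p 0.128), Vgll3 (0.12) and Vgll4 (0.135) ended. Those of Vgll3 and Vgll4 also ended without YAP5SA_MEF2A 2 or MEF2A 1, and those of Ajuba and Vgll3 without MEF2A 2.

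A word that TEAD factors are known to bind, CATTCC, was looked for on both strands (GGAATG on the other) in the 250 bases before each RefSeq start site of GRCm38.p6. Windows were found by symbol for 224 of the 290 risen genes, 97 of the 127 fallen genes and 12327 of the 17987 genes tested. The word stood in 18.2% of 292 windows of risen genes, 12.7% of 134 windows of fallen genes and 11.3% of 15704 windows of all genes tested. For the AP-1 word TGANTCA the shares were 5.5%, 4.5% and 4.9%, and for the MEF2 motif they were 1.7%, 2.2% and 1.8%. Genes can have several windows, and a match is a description of letters only. The windows of 3 risen genes named above are shown, on the strand of the gene and ending at a RefSeq start of it, because they hold the word (in capitals).
Amotl2: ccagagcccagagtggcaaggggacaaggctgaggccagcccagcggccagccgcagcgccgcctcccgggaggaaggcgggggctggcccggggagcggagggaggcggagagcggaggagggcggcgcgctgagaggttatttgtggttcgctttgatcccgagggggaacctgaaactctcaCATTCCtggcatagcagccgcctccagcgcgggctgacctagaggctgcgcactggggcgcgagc
Ajuba: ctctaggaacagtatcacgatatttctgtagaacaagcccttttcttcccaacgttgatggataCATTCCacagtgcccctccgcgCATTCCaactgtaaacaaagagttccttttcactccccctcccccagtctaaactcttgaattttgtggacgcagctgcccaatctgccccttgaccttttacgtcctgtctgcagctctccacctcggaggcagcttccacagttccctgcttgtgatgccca
Vgll3: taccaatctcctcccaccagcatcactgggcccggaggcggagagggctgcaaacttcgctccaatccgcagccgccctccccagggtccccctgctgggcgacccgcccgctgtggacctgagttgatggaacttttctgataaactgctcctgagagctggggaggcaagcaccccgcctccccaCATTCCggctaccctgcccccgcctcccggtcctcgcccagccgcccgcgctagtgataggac
They lie at chr9:102717554-102717803 (plus strand), chr14:54577662-54577911 (minus strand) and chr16:65814939-65815188 (plus strand). RefSeq starts differ from the gene bounds given above, and the one used for Amotl2 lies inside them. The word begins 65 bases before the start in Amotl2 and 63 in Vgll3, and the Ajuba window holds it 2 times, 186 and 164 bases before the start. Of the same 66 called genes, 50 had a window and 13 had the word. Of the 13, 7 rose and 6 fell, the fallen genes being Nebl, Eno3, Speg, Atp2b2, Tesc and Ttc39a.

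Of 30 tested genes of the actin cytoskeleton and focal adhesion, 5 rose and 0 fell, with a median of 0.75. Cnn2, a calponin that binds actin, had 57.1, 61.8, 61.4 and 60.5 CPM in MEF2A 1 to 4 and 233 and 212 with both viruses (1.86 ± 0.31, adjusted p = 0.0027). Myh9, the heavy chain of nonmuscle myosin, had 146, 156, 138 and 122 CPM and 388 and 379.8 CPM (1.49 ± 0.29, adjusted p = 0.00958). Vcl, which encodes vinculin, had 4.41, 4.06, 2.74 and 2.43 CPM and 18.8 and 19.2 CPM (2.40 ± 0.54, adjusted p = 0.0258), and Tln1, which encodes talin, had 191, 175, 197 and 186 CPM and 347 and 338 CPM (0.92 ± 0.22, adjusted p = 0.0354). Cnn3, another calponin, rose as well (1.56 ± 0.39, adjusted p = 0.0415). In all 5 the both-virus libraries lay above every MEF2A library. Beta-actin, Actb, had 201 ± 69.8 CPM (SD, n = 4) and 614 ± 87.9 CPM (SD, n = 2) and missed the threshold (1.53 ± 0.47, adjusted p = 0.129), and Actg1 was on the other side of 0 (-0.63 ± 0.29, adjusted p = 0.304). Phldb2, which anchors microtubules near adhesions, had the largest rise in CPM of all genes the rule could take. Its values were 853, 765, 745 and 614 CPM with MEF2A and 1513 and 1795 with both viruses (1.09 ± 0.28, adjusted p = 0.0433). Leaving out either both-virus library ended the calls of Myh9 (largest adjusted p 0.083), Vcl (0.159), Tln1 (0.343) and Phldb2 (0.389). The calls of Vcl, Tln1 and Phldb2 also ended without MEF2A 1, 2, 3 or 4, those of Tln1 and Phldb2 without Control 1 or 4, and that of Phldb2 without Control 2 or 5. In batch 1 alone Cnn2, Myh9, Vcl and Tln1 lost their calls.

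**Figure D2:**
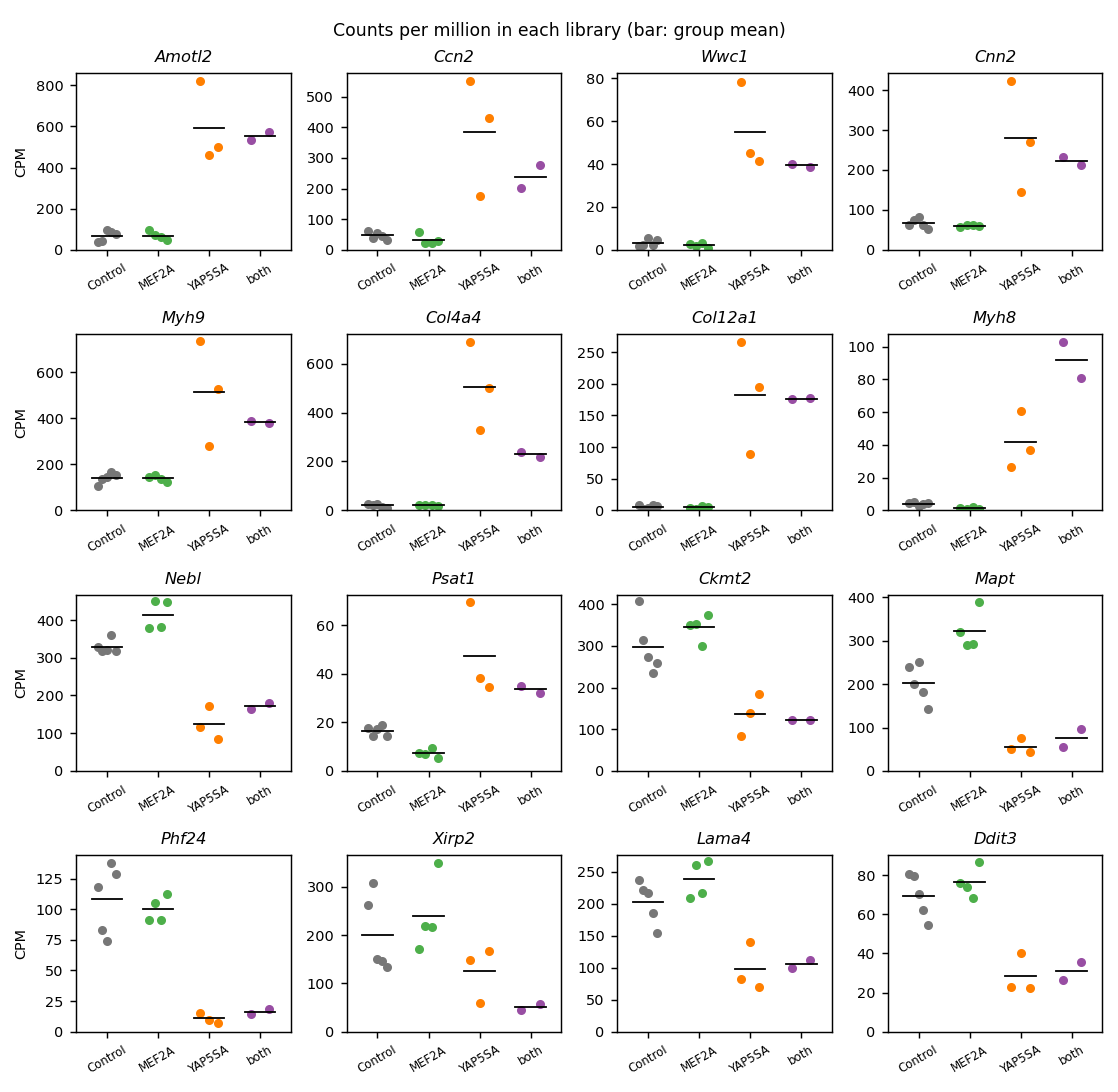
CPM (vertical axes, from 0) of 16 genes in each library of the 4 groups, with a bar at the group mean; "both" stands for YAP5SA_MEF2A. In all 16 panels the 2 both-virus points lie outside the range of the 4 MEF2A points, as they do for Amotl2 at 535 and 574 CPM against 45.5 to 94.5.

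In the basement membrane, the sheet of collagen IV and laminin around muscle fibres, 3 of 17 tested genes rose and 1 fell, with a median of 0.25. The collagen IV chain gene Col4a4 (chromosome 1, 82448423 to 82586849) had 20.6, 23, 23.6 and 17.7 CPM in MEF2A 1 to 4 and 238 and 219.7 with both viruses (3.34 ± 0.32, adjusted p = 1.98e-05). Col4a3, its neighbour and partner in a trimer, had 4.08, 3.62, 3.26 and 1.28 CPM and 98.1 and 86.9 CPM (5.02 ± 0.76, adjusted p = 0.00743), and Col4a5, the other chain of that trimer, had 132, 152, 147 and 115 CPM and 245 and 229 CPM (0.83 ± 0.21, adjusted p = 0.04). The common chains missed the threshold, with 0.36 ± 0.35, adjusted p = 0.703 for Col4a1 and 0.60 ± 0.27, adjusted p = 0.3 for Col4a2. Lama4, a laminin chain, fell from 209, 261, 216 and 266 CPM to 99.8 and 112 CPM (-1.31 ± 0.27, adjusted p = 0.0141). Of 22 interstitial matrix genes 2 rose and 0 fell, with a median of 0.42. Col12a1, a fibril-associated collagen (chromosome 9, 79598991 to 79718831), had 3.97, 2.62, 6.29 and 5.17 CPM with MEF2A and 176 and 178 CPM with both viruses (5.52 ± 0.51, adjusted p = 6.27e-05). Cemip, a protein that breaks down hyaluronan, had 0.544, 1.87, 0.144 and 0.0608 CPM and 89.5 and 85 CPM (6.89 ± 1.15, adjusted p = 0.0168). The fibrillar collagens Col1a1 (0.49 ± 0.42, adjusted p = 0.657) and Col3a1 (-0.36 ± 0.28, adjusted p = 0.595) did not pass. The calls of Col4a3 (largest adjusted p 0.0897), Col4a5 (0.463), Lama4 (0.249) and Cemip (0.118) ended without either both-virus library, and those of Cemip and Col4a5 also ended without MEF2A 1. The call of Col4a5 ended too without MEF2A 2, 3 or 4 or Control 1, 2, 4 or 5. Without the 3 mitochondria-rich libraries Cemip and Col4a5 did not pass.

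Among TGF-beta and BMP genes 2 of 23 rose and 0 fell, with a median of 0.17 (0.47 without Control 1 and 2). Both encode secreted ligands. Inhba, the subunit of activin A, had 1.69, 1.81, 1.34 and 1.4 CPM in the MEF2A libraries and 30.5 and 28.4 with both viruses (3.88 ± 0.57, adjusted p = 0.00135), and Tgfb3 had 18, 18.3, 22.6 and 14.3 CPM and 78.4 and 74 CPM (1.95 ± 0.41, adjusted p = 0.02). The receptor genes Tgfbr1 (0.01 ± 0.22, adjusted p = 0.997) and Tgfbr2 (0.57 ± 0.57, adjusted p = 0.712) did not pass. Of insulin-like growth factor and insulin genes 2 of 21 rose and 0 fell, with a median of 0.33 (0.53 in batch 1 alone). Igf2bp1, an RNA-binding protein of fetal tissue, had 4.46, 5.49, 2.06 and 1.64 CPM and 29.3 and 20.2 CPM (2.82 ± 0.55, adjusted p = 0.0121). Igfbp2, a binding protein for these growth factors, had 0 counts in all 4 MEF2A libraries and 14.5 and 12.9 CPM with both viruses, at least 327-fold higher than the 0.0418 CPM that 3 counts over the MEF2A group would give (adjusted p = 0.0388). Of 11 neuregulin and EGF receptor genes, 0 changed in either direction in edgeR's test, 1 was higher at an unadjusted p under 0.05, and the median was 0.07. The call of Inhba held whichever library was left out, and that of Igf2bp1 ended without YAP5SA_MEF2A 1 (adjusted p 0.135). Without either both-virus library or MEF2A 1 or 2 the calls of Tgfb3 (largest adjusted p 0.157) and Igfbp2 (0.294) ended, and that of Igfbp2 also ended without MEF2A 3 or 4, Control 1 or 2, or YAP5SA 3. Tgfb3 did not pass in batch 1 alone (adjusted p = 0.0696) or without the 3 mitochondria-rich libraries (0.0636). Igfbp2 did not pass with a sex term (adjusted p = 0.174), without the 3 mitochondria-rich libraries (0.141), without Control 1 and 2 (0.0714) or with library totals (0.0507).

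Skeletal muscle myosins appeared among the strongest rises. Of 16 fast skeletal and myogenic genes 11 were tested, and members near 0 with MEF2A could enter only through counts in other groups. Of the 11, 3 rose and 0 fell. Values were above 0 in 7 and below 0 in 4, and the median was 2.37. The median was 1.89 without the 3 mitochondria-rich libraries and 2.01 to 3.12 with 1 library left out. The 3 risen genes are myosin heavy chains of 1 cluster on chromosome 11. Myh8, the perinatal form (67277124 to 67308634), had 1.63, 0.686, 2.26 and 1.09 CPM in MEF2A 1 to 4 and 103 and 80.5 with both viruses (5.95 ± 0.43, adjusted p = 6.58e-07). Myh2 and Myh1, forms of fast fibres, were close to 0 with MEF2A. Myh2 (67171027 to 67197517) had 9 counts over the 4 MEF2A libraries, and 2344 and 2965 in the both-virus libraries, which is 90.9 and 120.2 CPM (adjusted p = 0.00115). Myh1 (67200052 to 67224575) had 7 counts, all of them in MEF2A 1, and 958 and 961 in the both-virus libraries, which is 37.2 and 39 CPM (adjusted p = 0.000351). The fitted log2 fold changes were 9.66 for Myh2 and 8.09 for Myh1, and the latter was 12.18 without MEF2A 1. These genes are near-identical copies of each other, and how reads shared between them were counted is not given in the sources used here, so the split between them is uncertain. Tnnt3, a fast troponin, had a lower mean with both viruses, 3.72 ± 1.82 CPM (SD, n = 2) against 11.7 ± 2.59 CPM (SD, n = 4), and missed the threshold (adjusted p = 0.064), and Mybpc2 had 0.27 ± 0.39 (SE, adjusted p = 0.83). Myh8 was the gene with the smallest p in the test of whether the YAP5SA change differed with and without MEF2A. Its log2 fold change was 2.63 ± 0.51 (SE) larger with MEF2A (unadjusted p = 7.39e-05, adjusted p = 1).

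Other genes with large rises belong to no single list. Pak3, a kinase downstream of Rac and Cdc42 (chromosome X, 143518591 to 143797796), had 1.09, 0.936, 0.672 and 0.79 CPM in MEF2A 1 to 4 and 31.9 and 36 CPM with both viruses (5.25 ± 0.37, adjusted p = 6.58e-07). Zbtb8b, a zinc finger gene (chromosome 4, 129425765 to 129440853), had 2.4, 3.06, 2.69 and 1.4 CPM and 50.1 and 68.8 CPM (4.37 ± 0.33, adjusted p = 6.8e-07). Krt7, a keratin of simple epithelia, had 2.67, 2.12, 1.3 and 0.669 CPM and 81 and 76.2 CPM (5.19 ± 0.50, adjusted p = 5.52e-05). These 3 genes, low in every MEF2A library, kept their calls whichever library was left out. Cacna1s, the calcium channel subunit of skeletal muscle, had 2.23, 1.44, 1.25 and 2.07 CPM and 59.7 and 61.8 CPM (5.45 ± 1.17, adjusted p = 0.0415). Prss27, a serine protease, had 1.36, 0.936, 0.624 and 1.15 CPM and 22.7 and 17 CPM (4.64 ± 0.95, adjusted p = 0.0274), and Lrp2, the endocytic receptor megalin, had 0.762, 0.312, 0.576 and 1.09 CPM and 16.5 and 18.6 CPM (4.47 ± 0.87, adjusted p = 0.0151). When either both-virus library was left out, the calls of Cacna1s (largest adjusted p 0.294), Prss27 (0.265) and Lrp2 (0.121) ended, as they did without MEF2A 1 or 2. The calls of Cacna1s and Prss27 ended also without MEF2A 3 or 4, and that of Cacna1s without Control 5 or YAP5SA 1 or 2.

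Contractile genes of the mature heart lay on the other side. Of 25 sarcomere genes 0 rose and 2 fell, and the median was -0.55 with TMM scaling but 0.08 with library totals, where it lay 0.59 below the median of all genes. Nebl, which encodes nebulette of the Z-disc (chromosome 2, 17343909 to 17731464), had 378, 449, 381 and 447 CPM in MEF2A 1 to 4 and 165 and 179 CPM with both viruses (-1.35 ± 0.25, adjusted p = 0.00805). Both both-virus libraries lay below the MEF2A range. The major components missed the threshold with values below 0. Myh6, the main cardiac myosin, had 41566, 44123, 42649 and 37598 CPM and 16996 and 18594 CPM (-1.09 ± 0.33, adjusted p = 0.0997), and Tnnt2, cardiac troponin T, had 18852, 18048, 14811 and 18241 CPM and 8566 and 9011 CPM (-1.07 ± 0.31, adjusted p = 0.09). Of the 25 genes, 14 had both both-virus libraries below all MEF2A libraries and 0 above. Tnnt2 is also the gene whose promoter drives both transgenes. The call of Nebl ended without either both-virus library (largest adjusted p 0.166).

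Markers of cardiomyocytes, used to check the labelled cell type, were abundant in both groups, with lower sums with both viruses. The 8 markers summed to 88726 to 93551 CPM in the MEF2A libraries and 42231 to 47012 CPM in the both-virus libraries. Of the 8, 0 passed in either direction, 7 were lower at an unadjusted p under 0.05, 7 lay below all MEF2A libraries, and the median was -0.84 (-0.16 with library totals). Of these markers 2 were called lower in batch 1 alone, where 96 genes were called lower in all. In the fit of the 6 libraries 6 were called lower, of 2523 genes called, 1310 of them lower. Among markers of other cells, 12 endothelial genes summed to 528 to 619 CPM with MEF2A and 392 to 426 CPM with both viruses. Their median was -0.78, and 0 passed, with 4 lower at an unadjusted p under 0.05. It was -0.43 in batch 1 alone, -0.40 without the 3 mitochondria-rich libraries and -0.42 in the fit of the 6 libraries. These 3 fits all set both viruses against MEF2A 1 and 2. With library totals it was -0.08. In the fit of the 6 libraries 3 endothelial genes were called lower, of 1310 genes called lower in all. Fibroblast markers summed to 275 to 350 CPM and 285 to 290 CPM, and macrophage markers to 65.0 to 99.7 CPM and 96.0 to 96.7 CPM. Mural markers summed to 499 to 594 CPM and 416 to 439 CPM. Of these 3 lists and the lists of lymphocyte and erythroid markers, 0 members passed. Of 10 epicardial, Schwann and adipose markers 1 rose, Wt1, a transcription factor of the epicardium, from 11, 13.5, 20.7 and 13.4 CPM to 57.7 and 84.6 CPM (2.16 ± 0.33, adjusted p = 0.00133), and its call held whichever library was left out. Other epicardial markers did not pass, with -0.18 ± 0.36, adjusted p = 0.89 for Msln and 1.07 ± 0.67, adjusted p = 0.491 for Upk3b. The part of the shift in cardiomyocyte markers, or of the lower mitochondrial share with both viruses, in any result here was not tested.

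Several large muscle genes outside the sarcomere list fell in CPM. Xirp2, an actin-binding protein of Z-discs and intercalated discs, was the 1 gene of 12 fetal and stress genes that fell, from 172, 218, 217 and 350.2 CPM to 44.7 and 57.9 CPM (-2.26 ± 0.52, adjusted p = 0.0388), and 0 rose. The natriuretic peptide genes Nppa (0.76 ± 0.62, adjusted p = 0.632) and Nppb (0.69 ± 0.77, adjusted p = 0.761) and the fetal myosin gene Myh7 (-0.51 ± 0.37, adjusted p = 0.567) did not pass. Myo18b, an unconventional myosin of muscle, had 2199, 2297, 2543 and 2981 CPM and 977 and 1166 CPM (-1.21 ± 0.28, adjusted p = 0.027), and Speg, a kinase of the muscle triad, had 2619, 2498, 2479 and 2846 CPM and 1375 and 1479.7 CPM (-0.91 ± 0.23, adjusted p = 0.0433). Naca, which encodes a ribosome-associated chaperone and a muscle isoform, had 1466, 1512, 1702 and 1969.7 CPM and 717 and 802 CPM (-1.11 ± 0.28, adjusted p = 0.0433). Of 24 calcium handling genes 1 fell, and the median was -0.31 (0.32 with library totals). This was Asph, whose products include junctin of the sarcoplasmic reticulum, at 199, 236, 208 and 197 CPM and 89.5 and 102 CPM (-1.08 ± 0.25, adjusted p = 0.0276). Of 17 ion channel genes 1 fell, the potassium channel gene Kcnk3 (-1.18 ± 0.31, adjusted p = 0.0486), with a median of -0.62. Lists of intercalated disc genes (13), MEF2 factors and coregulators (10) and cardiac transcription factors (15) held 0 called genes, with medians of -0.25, -0.28 and 0.33. The first was -0.07 in batch 1 alone, and the last 0.11 without Control 1 and 2. Leaving out either both-virus library ended the calls of Xirp2 (largest adjusted p 0.474), Myo18b (0.424), Speg (0.532), Naca (0.492), Asph (0.442) and Kcnk3 (0.585), as they did without MEF2A 2. Calls of Speg, Naca and Kcnk3 also ended without MEF2A 3 or 4 or Control 4 or 5, that of Xirp2 without MEF2A 3, that of Asph without MEF2A 1, those of Speg and Naca without MEF2A 1, and those of Naca and Kcnk3 without Control 1.

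The largest falls by fold were in genes at modest levels. Phf24, a gene with a PHD finger (chromosome 4, 42916660 to 42944752), had 90.8, 105, 91 and 112 CPM in MEF2A 1 to 4 and 14.3 and 18.1 CPM with both viruses (-2.66 ± 0.35, adjusted p = 0.00033). Mapt, which encodes the microtubule protein tau (chromosome 11, 104231390 to 104332090), had 319, 290.2, 291 and 389 CPM and 55.5 and 95.7 CPM (-2.17 ± 0.32, adjusted p = 0.000871). These were the 2 named falls whose calls held whichever library was left out. Abcb4, a phospholipid transporter, had 22.6, 39.3, 38.7 and 37.6 CPM, MEF2A 1 being the lowest, and 2.37 and 4.18 CPM (-3.33 ± 0.62, adjusted p = 0.0099). Atp2b2, a calcium pump of the plasma membrane, had 2.89, 7.49, 8.21 and 7.72 CPM and 0.737 and 0.487 CPM (-3.13 ± 0.63, adjusted p = 0.0129). Cuzd1 (-3.16 ± 0.80, adjusted p = 0.044), Rnft2 (-2.78 ± 0.60, adjusted p = 0.0276), Tesc (-2.14 ± 0.36, adjusted p = 0.00329) and Ttc39a (-2.03 ± 0.44, adjusted p = 0.0211) fell as well. So did Zfp775 (-1.97 ± 0.39, adjusted p = 0.0127), the synaptic scaffold gene Shank1 (-1.97 ± 0.41, adjusted p = 0.0151) and Fam19a3 (-1.96 ± 0.44, adjusted p = 0.0262). In all 11 genes the both-virus libraries lay below every MEF2A library. Without YAP5SA_MEF2A 2 the calls of Abcb4 (largest adjusted p 0.195), Cuzd1 (0.525), Atp2b2 (0.269), Rnft2 (0.373), Tesc (0.121), Ttc39a (0.324), Zfp775 (0.208), Shank1 (0.269) and Fam19a3 (0.364) ended, and all of these but Tesc also ended without YAP5SA_MEF2A 1. The calls of Cuzd1, Atp2b2, Rnft2, Ttc39a and Fam19a3 ended without MEF2A 2, and that of Cuzd1 without MEF2A 1, 3 or 4 or Control 1, 4 or 5.

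Genes of energy metabolism were lower on balance with TMM scaling, with few calls. In the TCA cycle and pyruvate entry 3 of 28 genes fell and 1 rose, and the median was -0.46 (0.18 with library totals, 0.50 below the median of all genes there). Fh1, fumarate hydratase, had 124, 115, 109 and 93.6 CPM in MEF2A 1 to 4 and 54.3 and 50.7 CPM with both viruses (-1.12 ± 0.24, adjusted p = 0.0171). Mdh2, malate dehydrogenase, had 190.2, 204, 199 and 247 CPM and 109 and 104 CPM (-0.92 ± 0.21, adjusted p = 0.0296), and Ogdh, of the oxoglutarate dehydrogenase complex, had 462, 524, 534 and 539 CPM and 265 and 285 CPM (-0.83 ± 0.21, adjusted p = 0.0422). Pdha1, a subunit of pyruvate dehydrogenase, went the other way, from 33, 29.8, 21.5 and 28.7 CPM to 60.8 and 57 CPM (1.04 ± 0.25, adjusted p = 0.0346). Among the 28 genes 19 lay below all MEF2A libraries and 2 above. In the creatine kinase and ATP shuttle list 1 of 9 fell, with a median of -0.55 (0.11 with library totals). It was Ckmt2, the mitochondrial creatine kinase of muscle, at 349.9, 352, 301 and 375 CPM and 123 and 122 CPM (-1.51 ± 0.30, adjusted p = 0.0127). Of 30 genes of glycolysis, lactate and glycogen 1 fell, with a median of -0.38 (0.26 with library totals). It was Eno3, the muscle enolase, at 1516, 1548, 1303 and 1809 CPM and 628 and 628 CPM (-1.36 ± 0.34, adjusted p = 0.0399). The calls of Fh1 (largest adjusted p 0.274), Mdh2 (0.376), Ogdh (0.563), Pdha1 (0.381), Ckmt2 (0.16) and Eno3 (0.358) ended without either both-virus library, and all of these but Ckmt2 also ended without MEF2A 1 or 2. Calls of Ogdh, Pdha1 and Eno3 ended without MEF2A 3 or 4, those of Pdha1 and Eno3 without Control 1, and those of Ogdh and Eno3 without Control 4 or 5.

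Of 37 genes of respiratory complex I 2 fell, Ndufs8 (-1.15 ± 0.24, adjusted p = 0.0158) and Ndufa10 (-0.79 ± 0.19, adjusted p = 0.0396), a core and an accessory subunit of the complex. Ndufs8 had 58, 55.9, 62.6 and 80.8 CPM with MEF2A and 28.2 and 26.9 with both viruses, and Ndufa10 had 109.8, 131, 122 and 144 CPM and 71.9 and 69.1 CPM. The medians of complex I and of the 33 genes of complexes III to V, of which 0 changed, were -0.16 and -0.15, but 0.50 and 0.48 with library totals and 0.09 and 0.02 without Control 1 and 2. Of 30 genes of fatty acid uptake and oxidation 0 changed and the median was -0.42 (0.17 with library totals). Of 16 regulators of mitochondrial biogenesis 1 rose, Polg, the mitochondrial DNA polymerase (0.91 ± 0.22, adjusted p = 0.0391), with a median of -0.21 (0.40 with library totals). The 16 tested mitochondrially encoded genes had a median of -2.59. Of these, 14 lay below all MEF2A libraries, and 0 passed at an adjusted or unadjusted p under 0.05 in the fit of all 14 libraries. In batch 1 alone and in the fit of the 6 libraries 8 were called lower, of 96 and 1310 genes called lower in all. The list median was -1.91 in either fit, and both fits set both viruses against MEF2A 1 and 2. Without Control 1 and 2 the median was -1.42. The 86 ribosomal protein genes had a median of 0.42, and 0 passed, with 4 higher and 1 lower at an unadjusted p under 0.05. When either both-virus library was left out, the calls of Ndufs8 (largest adjusted p 0.255), Ndufa10 (0.466) and Polg (0.439) ended. Those of Ndufa10 and Polg also ended without MEF2A 1, 2 or 4 or Control 4 or 5, and that of Polg without MEF2A 3 or Control 1.

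**Figure D3:**
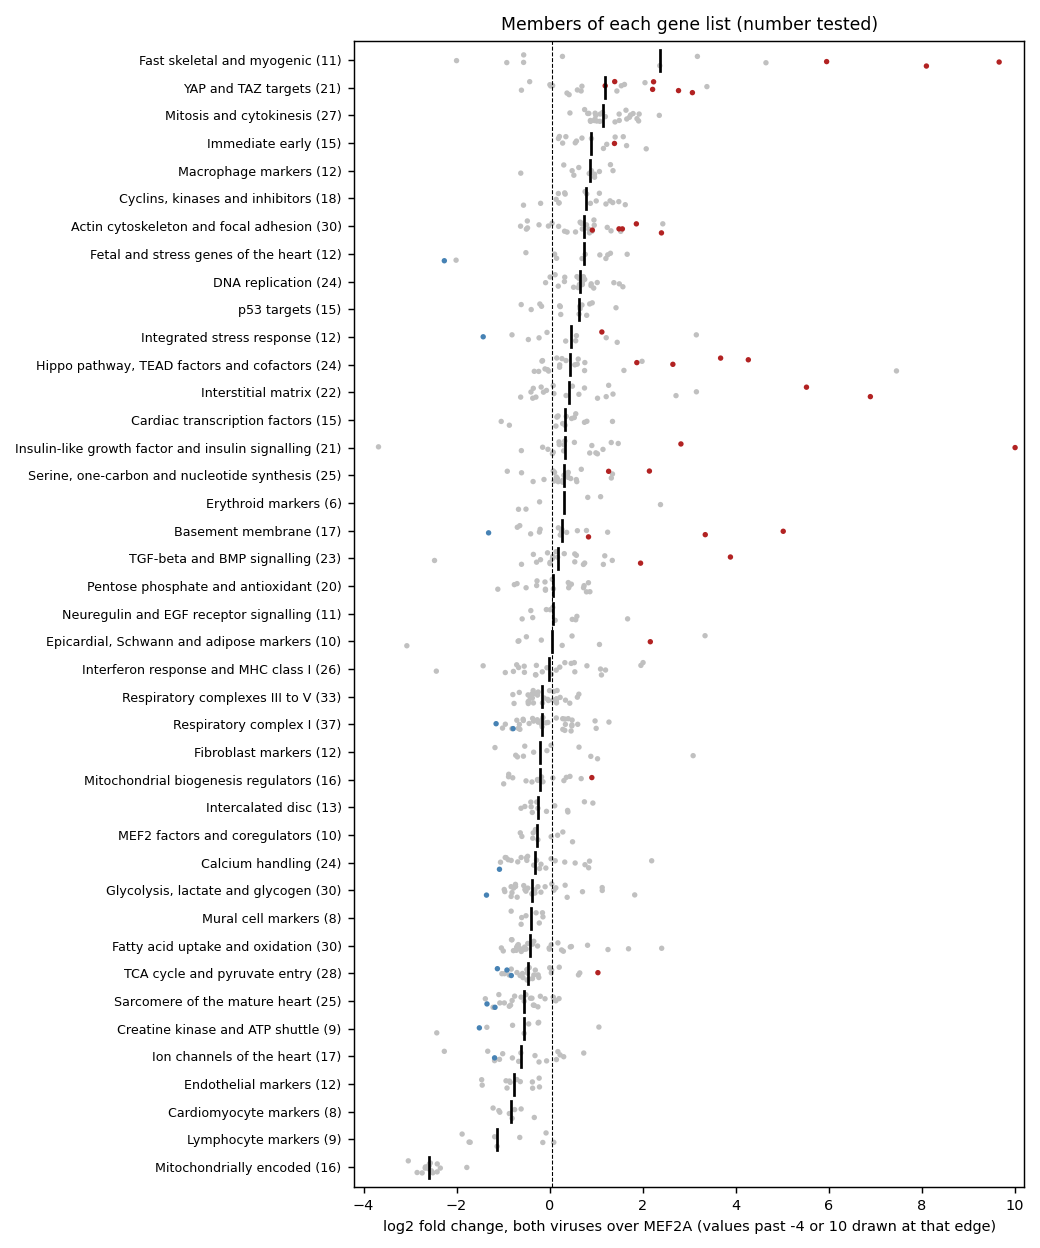
Log2 fold change of both viruses over MEF2A (horizontal axis, TMM scaling) for each tested member of 41 gene lists, with called members in red (higher) or blue (lower), a black bar at the list median and a dashed line at the median of all genes (0.05); values past -4 or 10 are drawn at that edge. YAP and TAZ targets (median 1.19) and mitosis genes (1.14) lie to the right, and cardiomyocyte markers (-0.84) and mitochondrially encoded genes (-2.59) to the left. With library totals the medians of sarcomere, calcium, creatine kinase, TCA cycle, fatty acid, respiratory complex, glycolysis, MEF2, intercalated disc, mitochondrial biogenesis, fibroblast and mural lists lie above 0. The median of all genes is higher there too, and each of these list medians lies below it, as with TMM scaling.

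In biosynthesis and stress lists a few single genes moved. Of 25 genes of serine, one-carbon and nucleotide synthesis 2 rose and 0 fell, with a median of 0.31. Psat1, an enzyme of serine synthesis (chromosome 19, 15904678 to 15947337), had 7.51, 6.86, 9.6 and 5.41 CPM in MEF2A 1 to 4 and 34.9 and 32.2 with both viruses (2.14 ± 0.31, adjusted p = 0.000871). The other enzymes of serine synthesis did not pass, with 0.14 ± 0.58, adjusted p = 0.954 for Phgdh and -0.60 ± 0.30, adjusted p = 0.341 for Psph. In the integrated stress response 1 of 12 rose and 1 fell. Atf4, its central transcription factor, had 56, 39.1, 45 and 53.5 CPM and 103 and 96.1 CPM (1.12 ± 0.27, adjusted p = 0.0388), and Ddit3, which encodes the pro-death factor CHOP, had 75.9, 74.1, 68.5 and 87.1 CPM and 26.6 and 35.6 CPM (-1.43 ± 0.27, adjusted p = 0.00887). Of 15 immediate early genes 1 rose, the transcription factor gene Klf4, from 12.1, 18.1, 11.5 and 13.4 CPM to 40.1 and 36.7 CPM (1.39 ± 0.34, adjusted p = 0.0379). All 15 had values above 0, and the median was 0.90. Of 20 pentose phosphate and antioxidant genes and 15 p53 targets 0 changed, with 2 higher and 3 lower in the first list and 3 higher and 0 lower in the second at an unadjusted p under 0.05. Psat1 kept its call whichever library was left out. Without either both-virus library the calls of Atf4 (largest adjusted p 0.343), Ddit3 (0.24) and Klf4 (0.32) ended. The calls of Atf4 and Klf4 also ended without MEF2A 1, 2, 3 or 4 or Control 1, that of Atf4 without Control 4 or 5, and that of Klf4 without YAP5SA 3.

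Cell-cycle lists held no call at the threshold. All 27 tested genes of mitosis and cytokinesis had a log2 fold change above 0, with a median of 1.14. Of these, 21 lay above all 4 MEF2A libraries in both both-virus libraries, and 14 were higher at an unadjusted p under 0.05. In edgeR's fit of all 14 libraries 0 passed. The number of the 27 called higher was 8 with DESeq2 and 0 with limma-voom, where 563 and 398 genes were called higher in all. It was 6 in batch 1 alone (208 in all) and 6 with library totals (427 in all). Without Control 3 it was 11 (395 in all), and in a fit of the 6 libraries alone 18 (1213 in all). Summed over the list, the level was 162 to 376 CPM in the MEF2A libraries and 519 to 694 CPM in the both-virus libraries. Kif20a, a kinesin of cytokinesis, had 2.33 ± 1.03 CPM (SD, n = 4) and 9.38 ± 2.48 CPM (SD, n = 2) (2.36 ± 0.69, adjusted p = 0.0945). Ect2, which starts the contractile ring, had 24.1, 9.24, 31 and 11.5 CPM in MEF2A 1 to 4 and 80.9 and 59 CPM with both viruses (1.88 ± 0.72, adjusted p = 0.236). Mki67, the proliferation marker, had 70.7, 32.8, 112 and 85.1 CPM and 164 and 105 CPM, with overlap (1.08 ± 0.64, adjusted p = 0.479). Of 24 DNA replication genes 23 had values above 0, the median was 0.66, 0 passed, and 9 were higher at an unadjusted p under 0.05. Of 18 cyclins, kinases and inhibitors 0 passed, 3 were higher at an unadjusted p under 0.05 and the median was 0.78. Of the 18, 2 had values below 0, Ccnd1 (-0.56 ± 1.23, adjusted p = 0.903) and Cdkn2d (-0.20 ± 0.74, adjusted p = 0.952). In the fit of the 6 libraries 5 replication genes and 0 of the cyclin list were called higher, of 1213 genes called higher in all.

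Set beside the other groups, the mitosis genes were low in the MEF2A libraries. Their median log2 CPM was 2.84, 2.20, 3.05 and 2.70 in MEF2A 1 to 4, and 3.83 and 3.61 with both viruses. In the Control libraries it was 4.30, 3.88, 1.99, 4.68 and 4.16, Control 3 standing below all others, and in the YAP5SA libraries 4.21, 3.87 and 4.08. The both-virus values thus lay below each YAP5SA library and below every Control library but Control 3. Because of Control 3, the Control range took in the both-virus values and all MEF2A values alike. By their transcripts the both-virus libraries were female and the YAP5SA libraries male, and the part of sex in these levels was not tested. For DNA replication the medians were 3.69, 3.48, 3.53 and 3.25 with MEF2A and 4.16 and 4.12 with both viruses. Against Control the YAP5SA libraries had a median log2 fold change of 0.18 over the mitosis list and -0.0045 over the replication list, with 0 genes called in either.

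**Figure D4:**
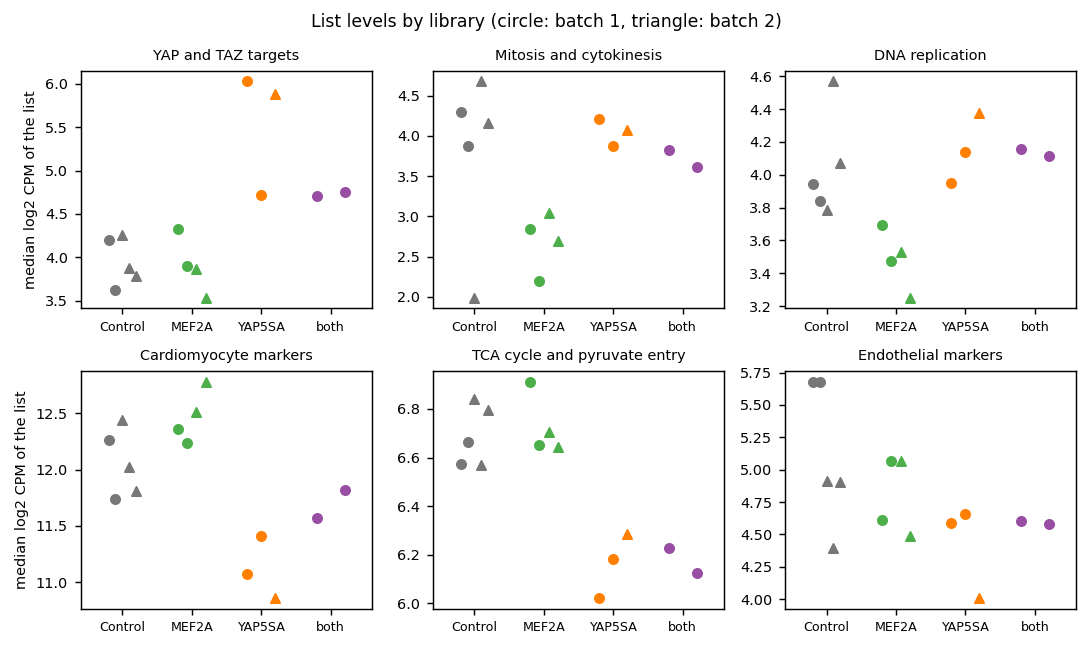
Median log2 CPM of the tested members of 6 lists (vertical axes, which do not start at 0) in each library of the 4 groups, with batch 1 as circles and batch 2 as triangles; "both" stands for YAP5SA_MEF2A. The mitosis list stands at 2.20 to 3.05 in the MEF2A libraries and at 3.61 and 3.83 with both viruses, and endothelial markers overlap between these groups.

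A last question is whether YAP5SA added to MEF2A differed from YAP5SA added to no virus. The groups of the second comparison, YAP5SA against Control, share no library with those of the first, but both comparisons came from 1 fit with 1 batch term. All 4 groups but the both-virus one set that term. The YAP5SA and Control libraries thus also enter the first comparison, and the MEF2A libraries the second. The part of this in the shared direction was not tested. Sex by transcripts was not balanced, as all 3 YAP5SA libraries were male and both both-virus libraries female. In YAP5SA against Control 1023 genes were higher (5.69%) and 750 lower (4.17%). Each of the 290 genes that rose with both viruses over MEF2A had a value above 0 there, and 259 (89.3%) were called higher. Each of the 127 fallen genes had a value below 0, and 106 (83.5%) were called lower. Seen from the other side, 25.3% of the 1023 genes and 14.1% of the 750 were called in the same direction with both viruses over MEF2A. Over all 17987 genes 75.9% had the same sign in both, and Spearman's rho across genes was 0.61. In batch 1 alone, a fit without a batch term, 288 of the 290 and all 127 kept the shared direction. The Controls there are Control 1 and 2, with 60.7% and 67.5% of counts from mitochondrially encoded genes. Without the 3 mitochondria-rich libraries 284 and 124 kept it. The Controls left are then all of batch 2 and the YAP5SA libraries all of batch 1. Only the MEF2A libraries link the batches in that fit and so enter both comparisons, and part of the shared direction is built in. The number also called in YAP5SA against Control in that fit was 46 of the 290 and 11 of the 127, since that comparison made 75 calls in all there. Of the 17987 genes, 441 had an unadjusted p under 0.05 in edgeR's test of the difference. That share is below the 0.05 that the threshold passes when no gene differs. The test of the difference called 0 genes (0%) with edgeR, 22 with DESeq2 and 0 with limma-voom. Without YAP5SA 2 it called 11, and with a sex term 0.

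Values side by side show the size of the shared change. Amotl2 rose by 3.07 with MEF2A and by 3.19 without (adjusted p = 6.32e-05), and Krt7 by 5.19 and 4.08 (adjusted p = 4.84e-05 without MEF2A). Col4a4 rose by 3.34 and 4.64, and its difference of -1.30 ± 0.41 (SE) had an adjusted p of 1. Pak3 rose by 5.25 and 3.36, a difference of 1.88 ± 0.45 (SE), with an unadjusted p of 0.000575 and an adjusted p of 1. Abcb4 and Atp2b2 fell by 3.33 and 3.13 over MEF2A and had -1.48 (adjusted p = 0.0509) and -1.28 (adjusted p = 0.0913) against Control. Their MEF2A means, 34.6 ± 7.98 and 6.57 ± 2.48 CPM (SD, n = 4), were above the Control means of 13.3 ± 6.42 and 4.09 ± 1.29 CPM (SD, n = 5). In Atp2b2 the MEF2A and Control libraries overlapped, and MEF2A against Control was not tested here. Xirp2 fell over MEF2A and had -0.68 (adjusted p = 0.293) against Control. A p that misses the threshold does not show that the changes were alike.

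**Figure D5:**
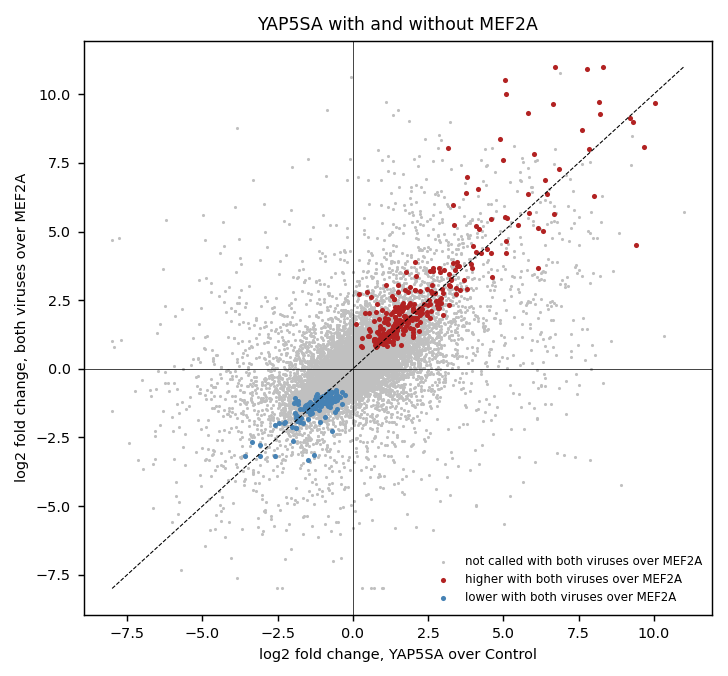
Log2 fold change of both viruses over MEF2A (vertical axis) against that of YAP5SA over Control (horizontal axis) for the 17987 genes tested, with values past -8 or 11 drawn at that edge and a dashed line where both are equal. The 290 genes higher (red) and 127 lower (blue) with both viruses over MEF2A all lie in the quadrants where the signs match.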

How the data were processed

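Heart nuclei enriched for PCM1 were profiled by polyA RNA-seq in 14 libraries. The deposited values are whole-number counts per Ensembl gene, with no normalization. STAR, limma, edgeR and GRCm38 are named per the submitters' processing notes; the counter, annotation release, strand setting and versions are not given in the sources used here. Libraries were non-directional, per the labels' protocols. Totals ran from 16171068 to 24027622, and interval width is set by the spread between libraries. By edgeR's filter a gene entered at a level worth 10 counts in a library of median size, in at least 2 libraries of any group. The 2 is the size of the smallest group. A total of at least 15 counts was also needed. Counts were scaled by TMM and fitted with edgeR 4.0.16 (quasi-likelihood, robust, R 4.3.3) by group and batch over all 14 libraries, with Benjamini-Hochberg adjustment at 0.05. CPM use the TMM factors, and log2 CPM a prior count of 2. SE is the log2 fold change divided by the square root of F. Fold changes are log2 unless said otherwise.

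Named genes are Yap1 and Mef2a, the 12 largest rises and falls with a mean log2 CPM of at least 1 and groups that did not overlap, the 6 largest CPM differences, and up to 4 called members of each of 42 lists (832 genes tested). Members and lists were chosen with earlier results of these data known. Some genes that the rule took are not reported here. Other list members named beside them were chosen after their values were seen. Alternatives were other scalings and filters, DESeq2 1.42.0, limma-voom (limma 3.58.1), fewer libraries, no batch term, a replicate block, a sex term and each library left out; the fit without the 3 mitochondria-rich libraries was added after seeing the data. Between groups, the deviations of same-numbered batch 1 libraries from their group's batch 1 mean correlated at -0.0458 to 0.0482, so numbers were not taken to pair libraries. The fit was run on simulated data made with a smaller spread than these data and no batch effect, so that run does not show the error rates here.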

Additional observations from a re-analysis of the deposited data

Results flagged for a closer look

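Over the 4 MEF2A libraries, 108 measures were looked at (genes in log2 CPM and the mitochondrial share), 5 held a library far from the others, and chance flags about 1 in 20. In MEF2A 1, Abcb4 stood at 22.6 CPM against 37.6 to 39.3 in the other MEF2A libraries, and Atp2b2 at 2.89 CPM against 7.49 to 8.21. Myh1 had 0.381 CPM in MEF2A 1 and 0 in the others. In MEF2A 4, the mitochondrial gene mt-Cytb stood at 44800 CPM against 22600 to 25000, and the actin regulator Gsn at 49.4 CPM against 51.9 to 52.1. MEF2A 4 was also the MEF2A library with the highest mitochondrial share (23.2%), the only male one by its transcripts and of batch 2, and the part of these in its values was not tested.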

How the results depend on the processing

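Of 417 genes changed between both viruses and MEF2A, the count was 1103 with no filter, 1058 with DESeq2, 2523 in the 6 libraries alone, 644 without Control 1 and 2, and 207 with a replicate block. With 1 library left out it ran from 90 (without YAP5SA_MEF2A 1) to 672 (without Control 3); without MEF2A 1 to 4 in turn it was 245, 170, 252 and 267. Leaving a both-virus library out leaves 1, assumed to vary like the other groups. The difference of the YAP5SA changes gave 0 calls, but 61 with no filter, 22 with DESeq2 and 1 in batch 1 alone, and 0 to 11 with 1 library left out. For YAP5SA against Control the count of 1773 was 2951 with DESeq2, 938 with a replicate block and 75 without the 3 mitochondria-rich libraries, and 544 (without YAP5SA 3) to 2998 (without YAP5SA 2) with 1 library left out. Of the 66 calls that the rule for named genes took, 26 were lost with the replicate block, at adjusted p from 0.0506 to 0.141: among them Asap1, Asph, Atf4, Atp2b2, Cemip, Col4a5, Cuzd1, Eno3, Kcnk3, Klf4, Lrp2, Mdh2, Myo18b, Naca, Ndufa10, Ndufs8, Ogdh, Pdha1, Phldb2, Polg, Rnft2, Speg, Tln1, Vcl and Xirp2. In batch 1 alone 26 were lost, at 0.0543 to 0.152: Atf4, Atp2b2, Ccn2, Cnn2, Col4a5, Ddit3, Eno3, Kcnk3, Klf4, Lama4, Lrp2, Mdh2, Myh9, Myo18b, Ndufa10, Pdha1, Polg, Rnft2, Shank1, Speg, Tgfb3, Tln1, Ttc39a, Vcl, Vgll4 and Zfp775. Without the 3 mitochondria-rich libraries 20 were lost, at 0.0514 to 0.141, among them Atf4, Cacna1s, Ccn2, Cemip, Col4a5, Eno3, Igfbp2, Kcnk3, Klf4, Myh9, Myo18b, Naca, Ndufa10, Pdha1, Polg, Rnft2, Speg, Tgfb3 and Tln1. With a sex term 17 were lost, at 0.0504 to 0.174, among them Atf4, Col4a5, Cuzd1, Eno3, Igfbp2, Kcnk3, Klf4, Naca, Ndufa10, Ogdh, Pdha1, Phldb2, Polg, Speg, Tln1 and Vcl. None of the 66 (0) reversed direction. The causes were not tested. With 2 both-virus libraries, a missed threshold does not show that levels were alike.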

Other observations

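Genes of the interferon response and MHC class I had 0 called members of 26 in edgeR's test, with 0 at an unadjusted p under 0.05, and a median log2 fold change of -0.01 in the fit of both batches. In batch 1 alone the median was 1.31, and with library totals it was 0.77. In a fit of the 6 libraries alone 5 members were called higher, of 1213 genes called higher in all. Their summed level was 408 to 692 CPM in the MEF2A libraries and 487 to 1205 CPM in the 2 both-virus libraries.

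The median log2 CPM of the YAP and TAZ targets was 4.33, 3.90, 3.86 and 3.53 in MEF2A 1 to 4 and 4.71 and 4.76 with both viruses. In YAP5SA 1 to 3 it was 6.03, 4.72 and 5.88. Of the YAP5SA libraries, YAP5SA 2 was the one closest to the both-virus level, and the test of the difference made 11 calls without it.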
